A study of Mus musculus with 12 samples.

Results

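The Hippo pathway was followed through 10 of the 56748 genes measured in mouse hearts, chosen by name: the coactivators Yap1 and Wwtr1, the 4 Tead transcription factors, the kinases Lats1 and Lats2, and the secreted targets Ccn1 and Ccn2. All 10 names were found in the table once, and all 10 passed the filter on low values described below. The libraries came from Csrp3 KO hearts at P21 (postnatal day 21), WT hearts at P21, Csrp3 KO hearts at P1 (postnatal day 1) and WT hearts at P1, with 3 libraries in each group. Csrp3 encodes muscle LIM protein of the sarcomere's Z disc, and the series title ties it to cell cycle entry of heart muscle cells. Strain, sex and the structure of the knockout allele are unnamed in the labels, which list no agent for any group. Nor is it stated whether each library came from its own animal, so the spread behind the p-values may be technical in part.

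In the Hippo pathway, the kinases Stk3 and Stk4 act with the scaffold Sav1 to activate Lats1 and Lats2, which are helped by the Mob1 proteins. Active Lats kinases phosphorylate Yap1 and Wwtr1 (the protein Taz), which keeps both out of the nucleus. Unphosphorylated Yap1 and Taz bind Tead factors on DNA and raise the transcription of targets such as Ccn1 and Ccn2. In the mouse heart the pathway is known for restraining the division of heart muscle cells, and active Yap1 for promoting it. Since Yap1 and Taz are governed largely by phosphorylation and location, RNA levels of the pathway's parts do not measure its activity.

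Depth was 9.67 to 15.9 M reads in genes per library, and the unit was FPKM, a read level per length of gene and per depth of library. Csrp3 RNA was present in all 6 libraries labelled KO, at 671 to 1112 FPKM in KO P21 against 572 to 1397 in WT P21, and at 94.3 to 168 in KO P1 against 179 to 238 in WT P1. Genotype is therefore written as labelled throughout. WT P21 libraries 1 and 2 stood apart, with 17344 and 15811 genes above 0 against 18348 to 20208 in the other P21 libraries, so results that rest on them are also given without them. Their library names, alone in the series, also end in R, with no meaning given in the labels. Any difference in handling that it marks would bear on every comparison with WT P21. Markers of heart muscle cells were present in every library, with a summed level over 9 genes of 14740 to 18020 FPKM in KO P21, 14004 to 30216 in WT P21, 6029 to 8286 in KO P1 and 6170 to 7623 in WT P1. The source was heart tissue with its mixture of cells, so fewer cells of a type and less RNA per cell cannot be told apart.

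By the table's own coordinates, whose build is not tied to them in the labels, Yap1 spanned positions 7932000 to 8004597 of chromosome 9, Wwtr1 57363070 to 57483331 of chromosome 3 and Ccn1 145352731 to 145355736 of the same chromosome. Tead1 spanned 112278525 to 112506014 and Tead2 44865177 to 44883068 of chromosome 7, Tead3 28550645 to 28569791 of chromosome 17 and Tead4 128201251 to 128277786 of chromosome 6. Lats1 lay at 7556978 to 7592224 and Ccn2 at 24471340 to 24474581 of chromosome 10, and Lats2 at 57927119 to 57995845 of chromosome 14. The starts of 9 of the 10 lay far from those in GRCm38, so these positions and the promoter positions given next belong to different builds.

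The promoters bear on which of these genes are themselves candidates for Tead binding, and the letters that matter are shown first. RefSeq's table for GRCm38.p6 held promoter windows for 7 of the 10 genes, 11 windows in all, each running from 250 bases before a gene start to 50 after it. The core of the Tead site, CATTCC read on either strand, occurred in 7 of the 11 windows and in 5 of the 7 genes: Ccn1, Yap1, Wwtr1, Lats2 and Tead3. Over all 32851 windows in the table it occurred in 14.7%, and 16.6% of 27025 genes had a window with it. One Tead3 window held the core 3 times, as 0.131% of all windows did 3 times or more. The windows of Tead2 and Lats1 held none. A match is a run of letters and not a site shown to be bound. One site per gene is printed on the gene's strand with the core in capitals, where GGAATG is the core on the opposite strand.
Ccn1, chr3:145650071-145650100, minus strand, 103 bases before the start: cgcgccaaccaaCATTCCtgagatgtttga
Yap1, chr9:8004720-8004749, minus strand, 141 bases before the start: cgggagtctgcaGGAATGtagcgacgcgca
Wwtr1, chr3:57576029-57576058, minus strand, 136 or 170 bases before its 2 starts: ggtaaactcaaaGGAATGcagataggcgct
Lats2, chr14:57746102-57746131, minus strand, just after the start: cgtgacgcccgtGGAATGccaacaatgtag
Tead3 (1 of its 4 sites), chr17:28350970-28350999, minus strand, 182 bases before the start: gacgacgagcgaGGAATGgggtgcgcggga

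Whole upstream sequences are shown for Ccn1, the member with the highest ratio of its highest to its lowest library, and for Tead2, the member that differed most with age. Capitals mark the Tead core CATTCC, the CRE core TGACGT (printed on the opposite strand as ACGTCA) and the TATA motif TATAAA, which do not overlap. The Ccn1 window held all of them, where 7.51% of all windows held the CRE core and 13.6% the TATA motif. The Tead2 window held none of them.
Ccn1, GRCm38.p6 chr3:145649986-145650235, minus strand: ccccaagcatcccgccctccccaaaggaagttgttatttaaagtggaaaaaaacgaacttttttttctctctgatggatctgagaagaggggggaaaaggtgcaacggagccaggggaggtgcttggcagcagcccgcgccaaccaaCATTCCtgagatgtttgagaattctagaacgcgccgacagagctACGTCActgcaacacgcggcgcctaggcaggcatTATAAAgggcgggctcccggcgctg
Tead2, GRCm38.p6 chr7:45215542-45215791, plus strand: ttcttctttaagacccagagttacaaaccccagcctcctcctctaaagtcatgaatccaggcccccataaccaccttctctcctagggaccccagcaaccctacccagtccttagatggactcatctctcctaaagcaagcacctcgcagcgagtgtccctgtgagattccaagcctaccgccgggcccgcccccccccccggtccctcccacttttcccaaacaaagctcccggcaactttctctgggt

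Across the postnatal weeks the largest difference among the 10 genes was in Tead2, a Tead factor abundant in the early embryo, which was far lower at P21 in both genotypes. Tead1, the family member of heart muscle, was lower at P21 in WT hearts. The coactivators and Lats kinases did not pass the test with age on the deposited scale. The secreted targets had no gene past the threshold in any comparison, but at P21 Ccn1 and Ccn2 lay higher in every KO library than in any WT library.

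**Figure D1:**
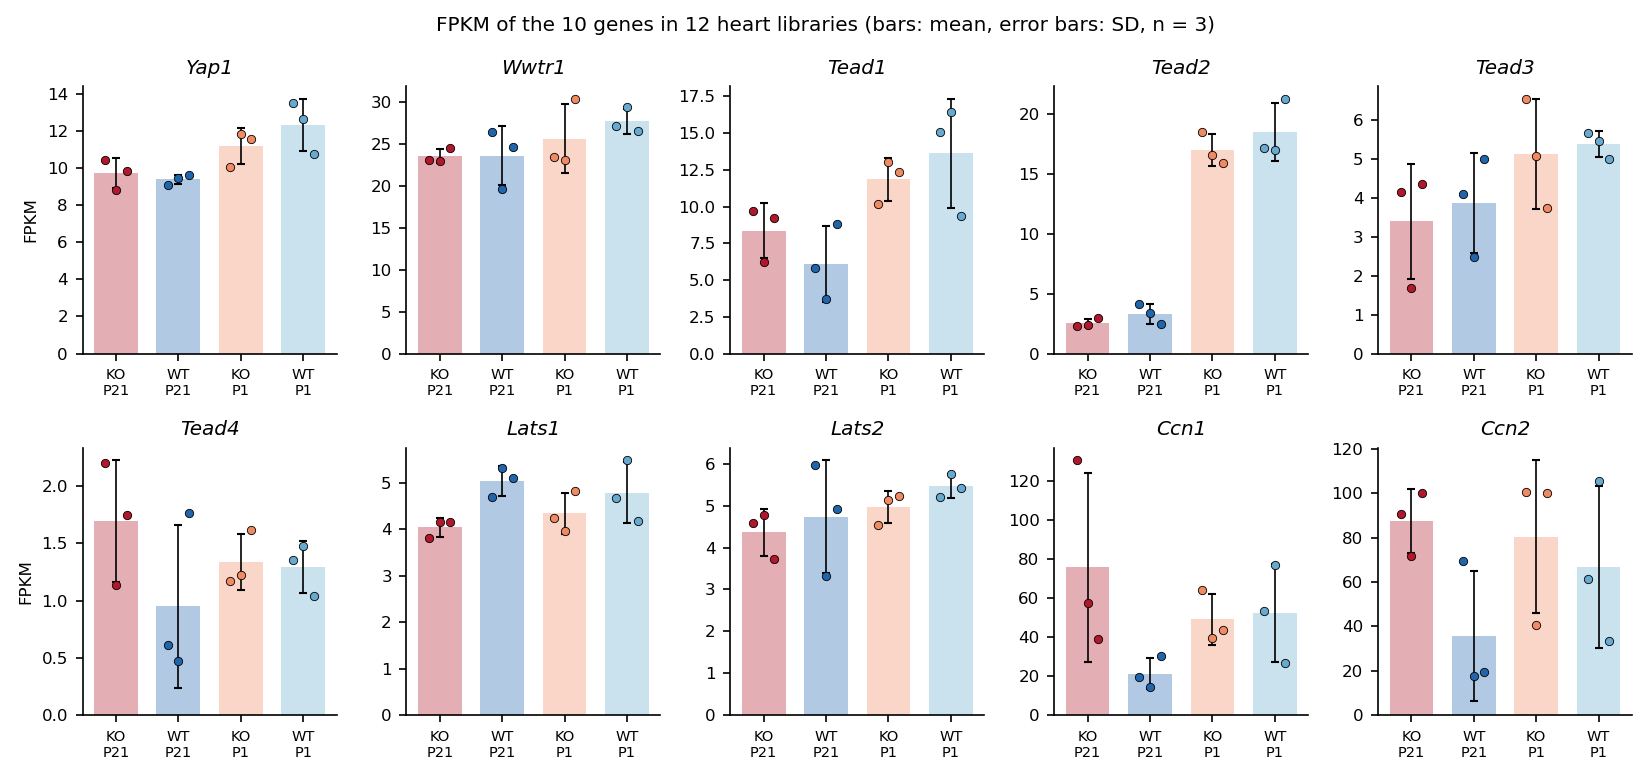
FPKM (vertical axes, each from 0) of the 10 genes in KO P21, WT P21, KO P1 and WT P1 hearts. Points are libraries in the order 1, 2, 3, bars are means and error bars are SD (n = 3). Tead2 lay between 2.33 and 4.10 FPKM in the P21 libraries and between 15.9 and 21.3 in the P1 libraries.

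Values were tested as log2(FPKM + 0.5) with limma over 13537 genes that reached 1 FPKM in at least 3 libraries, with 1 mean per group and Benjamini-Hochberg adjustment over all of these genes. A log2 change on this scale understates the change of genes with low FPKM. Between P21 and P1 in KO hearts, 1 of the 10 genes passed an adjusted p of 0.05 as lower and none as higher. Of all genes tested, 13.2% were lower and 11.8% higher. In WT hearts 2 were lower and none higher, where 23.3% of all genes were lower and 21.5% higher. The shares of members that were lower stand close to those of all genes. By separation of the libraries, 2 members were lower in KO and 4 in WT without overlap, and none higher. Of all genes, 24.8% in KO and 27.5% in WT were lower without overlap, while 22.6% in KO and 24.4% in WT were higher. The counts are therefore no result about the pathway as a whole, and the results lie in the single genes.

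Tead2 had 2.33, 2.41 and 2.94 FPKM in KO P21 libraries, against 18.5, 16.5 and 15.9 in KO P1 libraries. In WT hearts it had 4.10, 3.36 and 2.44 FPKM at P21, against 17.1, 17.03 and 21.3 at P1. Every P21 library lay below every P1 library, by a wide margin. The log2 change from P1 was -2.52 in KO (SE 0.19, adjusted p = 8.7e-06, limma) and -2.34 in WT (SE 0.19, adjusted p = 1.1e-05). The mean at P1 was 6.63 times that at P21 in KO and 5.60 times in WT. Of all genes tested, 1.02% in KO and 2.16% in WT had a lower change. Both calls held under all 24 alternative settings tried. Epicardial markers moved with Tead2: the summed level of 6 was 8.75 to 23.8 FPKM in KO P21 against 52.3 to 58.5 in KO P1, and 3.74 to 8.38 in WT P21 against 41.4 to 55.3 in WT P1. Of the 6 markers, 5 fell in KO and 6 in WT, where 13.2% of all genes fell in KO and 23.3% in WT. Other lists changed with age too: of 8 fibroblast markers, 1 fell and 2 rose in KO, and 4 fell and 1 rose in WT. The part of these cells in the Tead2 change was not tested. The KO effect on Tead2 was not shown to differ between the ages (difference -0.18, 95% interval -0.75 to 0.39, adjusted p = 0.852).

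Tead1 had 9.67, 6.23 and 9.20 FPKM in KO P21 libraries, against 10.2, 13.01 and 12.3 in KO P1 libraries. In WT hearts it had 5.80, 3.71 and 8.82 FPKM at P21, against 15.04, 16.4 and 9.38 at P1. The ages did not overlap in either genotype, although WT P21 library 3 and WT P1 library 3 lay close together. Tead1 fell in WT (log2 change -1.13, SE 0.30, adjusted p = 0.0100), and the change in KO was -0.49 (SE 0.30, adjusted p = 0.251). The difference between these age changes was 0.64 (95% interval -0.28 to 1.55, adjusted p = 0.696), so the genotypes were not shown to differ. Without WT P21 libraries 1 and 2 the WT change was -0.56 (adjusted p = 0.246), which ends the call.

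Tead3 and Tead4, expressed at lower levels, did not pass the test in any comparison. Tead3 averaged 3.395 ± 1.48 FPKM in KO P21 and 3.86 ± 1.29 in WT P21, against 5.12 ± 1.41 in KO P1 and 5.38 ± 0.34 in WT P1 (SD, n = 3 each). Its age changes were -0.58 in KO (SE 0.32, adjusted p = 0.212) and -0.48 in WT (SE 0.32, adjusted p = 0.248). Tead4, which marks the trophectoderm of the early mouse embryo, was the lowest of the 10 genes. It had 2.20, 1.14 and 1.75 FPKM in KO P21 libraries, from 34 to 93 reads, against 0.610, 0.475 and 1.77 in WT P21 libraries, from 10 to 85 reads. WT P21 library 3 lay among the KO values, and the other pair of WT libraries lay below all KO values. The log2 difference was 0.67 (SE 0.32, adjusted p = 0.372). It passed at 1.05 (adjusted p = 0.0259) without WT P21 library 3 and was -0.08 (adjusted p = 0.988) without WT P21 libraries 1 and 2.

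**Figure D2:**
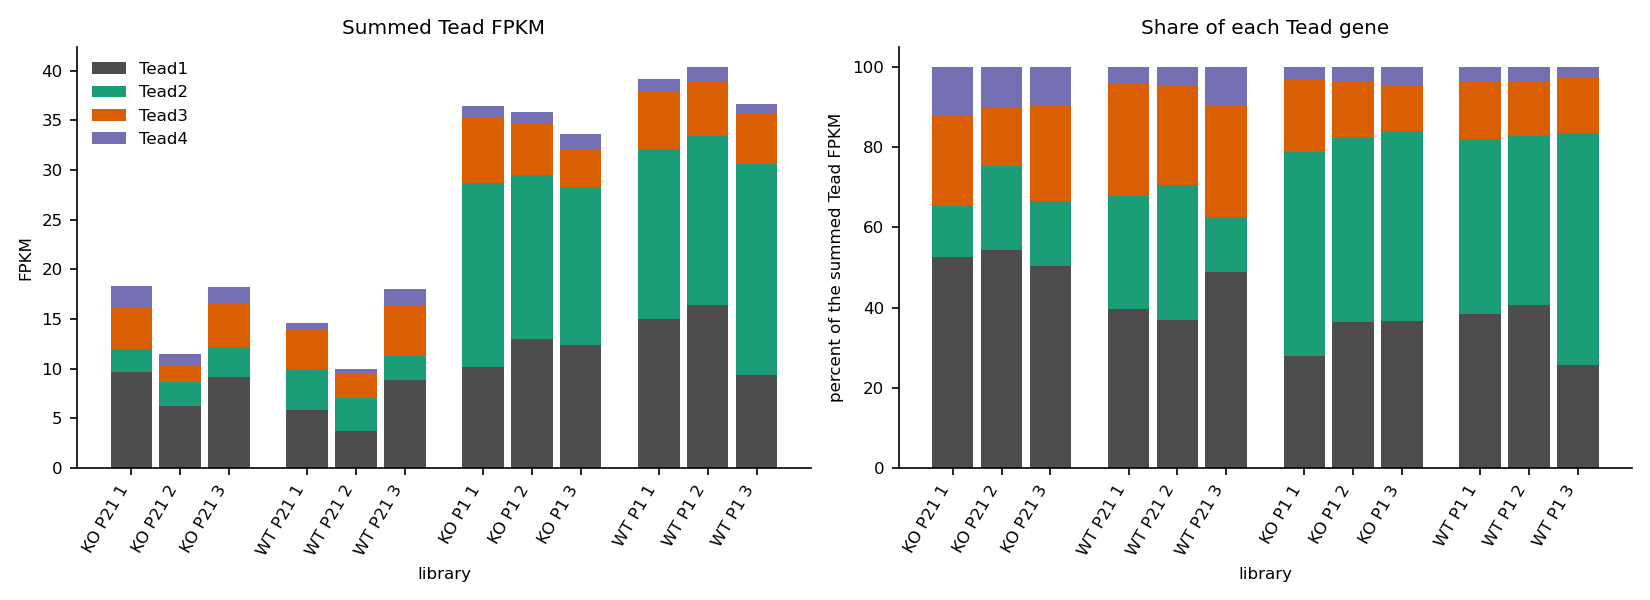
FPKM of the 4 Tead genes stacked per library (left), and each gene's percent of their summed FPKM (right). Tead2 held 12.7% to 21.1% of the sum in KO P21, 13.5% to 33.5% in WT P21, 46.1% to 50.8% in KO P1 and 42.2% to 58.0% in WT P1.

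The make-up of the Tead family thus differed between the ages as well as its total. The summed FPKM of the 4 genes was 16.02 ± 3.94 in KO P21 and 14.2 ± 4.03 in WT P21, against 35.3 ± 1.49 in KO P1 and 38.8 ± 1.88 in WT P1 (SD, n = 3 each). Tead2 accounted for 16.6% ± 4.21 of the sum in KO P21 and 25.0% ± 10.3 in WT P21, against 48.1% ± 2.42 in KO P1 and 47.9% ± 8.71 in WT P1. No P21 library reached the share of any P1 library. Tead1 accounted for 52.5% ± 1.94 in KO P21 and 41.9% ± 6.22 in WT P21, against 33.7% ± 4.91 in KO P1 and 34.9% ± 8.12 in WT P1. Tead1 held a larger share than Tead2 in all 6 P21 libraries, and Tead2 a larger share than Tead1 in all 6 P1 libraries. FPKM is per length of gene, so these shares compare transcript levels.

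The coactivators did not pass the test in any comparison on the deposited scale. Yap1 had 10.4, 8.83 and 9.86 FPKM in KO P21, 9.11, 9.46 and 9.60 in WT P21, 10.1, 11.8 and 11.6 in KO P1 and 13.5, 12.7 and 10.7 in WT P1. Its highest library was 1.53 times its lowest. The WT ages did not overlap, with a log2 change of -0.37 (SE 0.14, adjusted p = 0.0568), and the change in KO was -0.19 (SE 0.14, adjusted p = 0.365). Wwtr1, encoding Taz, had 23.0, 23.0 and 24.5 FPKM in KO P21, 26.4, 19.6 and 24.6 in WT P21, 23.4, 23.1 and 30.4 in KO P1 and 27.1, 29.4 and 26.5 in WT P1. Its age changes were -0.11 in KO (adjusted p = 0.671) and -0.24 in WT (adjusted p = 0.269). Under TPM, which moved the median of all genes to -0.65 in KO and -1.10 in WT, both passed as lower: Yap1 at -0.85 in KO (adjusted p = 0.0225) and -1.49 in WT (adjusted p = 0.000478), and Wwtr1 at -0.78 in KO (adjusted p = 0.0415) and -1.37 in WT (adjusted p = 0.00113). Relative to that median Yap1 was -0.21 in KO and -0.40 in WT, and Wwtr1 -0.13 in KO and -0.27 in WT. Wwtr1 transcripts were more abundant than those of Yap1 in each library, with a mean ratio of 2.43 ± 0.20 in KO P21, 2.52 ± 0.41 in WT P21, 2.30 ± 0.34 in KO P1 and 2.26 ± 0.24 in WT P1 (SD, n = 3 each).

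Lats1 and Lats2, which phosphorylate both coactivators, were expressed at near equal levels and passed no test on the deposited scale. Lats1 had 3.80, 4.14 and 4.16 FPKM in KO P21 libraries, against 4.69, 5.32 and 5.10 in WT P21 libraries. All KO values lay below all WT values, with a log2 difference of -0.29 (SE 0.15, adjusted p = 0.408). The difference was 0.05 after rescaling each library to the same sum (TPM) and 0.09 after leaving mitochondrial and top genes out of the scaling. Its sign therefore rests on the scale, as both rescalings moved the median of all genes from 0.00 to 0.34. Relative to that median Lats1 was -0.29 as deposited, -0.29 under TPM and -0.25 without mitochondrial and top genes. At P1, Lats1 had 4.23, 3.96 and 4.82 FPKM in KO, against 4.67, 5.48 and 4.18 in WT. Lats2 averaged 4.36 ± 0.56 FPKM in KO P21, 4.74 ± 1.34 in WT P21, 4.97 ± 0.38 in KO P1 and 5.47 ± 0.28 in WT P1 (SD, n = 3 each). Its age changes were -0.17 in KO (adjusted p = 0.558) and -0.22 in WT (adjusted p = 0.374). Under TPM both kinases passed as lower with age, Lats1 at -0.73 in KO and -1.01 in WT, and Lats2 at -0.82 in KO and -1.32 in WT. There the median of all genes was -0.65 in KO and -1.10 in WT, and 4913 and 8408 of 13537 genes were lower. Relative to that median Lats1 was -0.09 in KO and 0.09 in WT, and Lats2 -0.18 in KO and -0.22 in WT.

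**Figure D3:**
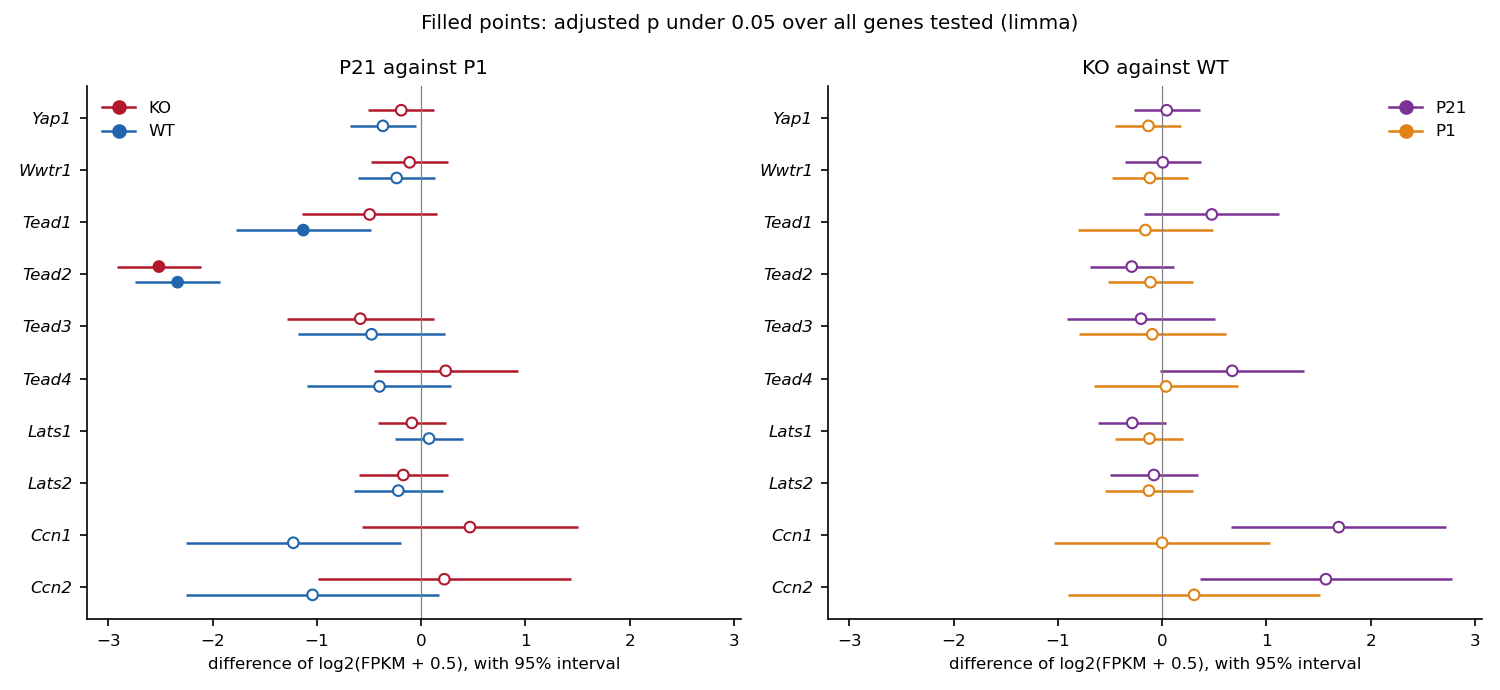
Log2 differences (horizontal axes, log2(FPKM + 0.5)) with 95% intervals for age in KO and WT (left) and for genotype at P21 and P1 (right). Filled points passed an adjusted p of 0.05 over all genes tested: Tead2 in both genotypes and Tead1 in WT. The Ccn1 and Ccn2 intervals at P21 lie above 0 before adjustment, from 0.66 to 2.73 and from 0.36 to 2.78.

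Between KO and WT none of the 10 genes passed the test at P21 or at P1. Of all genes tested, 0.0591% were higher and 0.00739% lower in KO at P21, and 0.0% in either direction at P1. At an unadjusted p under 0.05 limma gave 1863 genes at P21 and 82 at P1. The P21 counts, 8 higher and 1 lower, became 818 higher and 996 lower without WT P21 library 3. The difference of the KO effects between the ages was called for none of the 10 and for 0.0% of all genes (940 at an unadjusted p under 0.05 by limma). By separation of the libraries, 2 members were higher and 1 lower in KO at P21 with no overlap, where 6.9% of all genes were higher and 5.05% lower without overlap. At P1 all 10 members overlapped, where 4.52% of all genes were higher and 3.44% lower without overlap. Differences at P1 ran from -0.16 (Tead1) to 0.31 (Ccn2).

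Ccn1 (Cyr61) encodes a secreted matrix protein that Yap1 and Taz switch on. It had 130, 57.3 and 39.1 FPKM in KO P21 libraries, against 19.2, 14.2 and 30.01 in WT P21 libraries. Every KO value lay above every WT value, but the KO libraries spread widely and KO P21 library 3 lay near WT P21 library 3. The log2 difference was 1.69 (SE 0.47, adjusted p = 0.190, limma), larger than in 99.3% of the genes tested. Without KO P21 library 1 it was 1.21 (adjusted p = 0.467), without WT P21 library 3, where many more genes passed, it was 1.97 (adjusted p = 0.0308), and without WT P21 libraries 1 and 2 it was 1.13 (adjusted p = 0.980). At P1, Ccn1 had 63.8, 39.4 and 43.8 FPKM in KO, against 53.3, 77.0 and 26.8 in WT, a difference of 0.00 (SE 0.47). The KO effects at P21 and P1 differed by 1.69 (95% interval 0.23 to 3.16, adjusted p = 0.687). In WT the age change was -1.23 (SE 0.47, adjusted p = 0.0525), and in KO 0.47 (SE 0.47, adjusted p = 0.510).

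Ccn2 (Ctgf), a related matrix protein tied to fibrosis, had 90.6, 71.8 and 100.2 FPKM in KO P21 libraries, against 69.4, 17.6 and 19.6 in WT P21 libraries. Again no KO value fell within the WT range, although WT P21 library 1 came within a few FPKM of KO P21 library 2. The log2 difference was 1.57 (SE 0.55, adjusted p = 0.278), larger than in 99.2% of the genes tested. Without WT P21 library 1 it was 2.19 (adjusted p = 0.175), and without WT P21 libraries 1 and 2 it was 2.12 (adjusted p = 0.548). At P1 the values were 100.7, 40.7 and 100.003 FPKM in KO, against 61.3, 105.6 and 33.3 in WT, with wide overlap. Ccn1 and Ccn2 did not put the libraries in the same order. Ccn1 was highest in KO P21 library 1, and Ccn2 in WT P1 library 2.

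Markers of fibroblasts, cells that also express Ccn2, lay higher in KO than in WT at P21 as a sum, as both genes did. Within the groups the order agreed only in part, since the sum rose from library 1 to library 3 in both P21 groups. Ccn1 was highest in library 1 of KO P21 and library 3 of WT P21. Ccn2 was highest in library 3 of KO P21 and library 1 of WT P21. The summed FPKM of 8 of 8 fibroblast markers was 482 to 679 in KO P21, against 269 to 418 in WT P21, with no overlap and no marker at 0. Their median log2 difference was 1.09, and 0.39 without WT P21 libraries 1 and 2, and 7 of the 8 were positive. Singly, 4 of the 8 lay above WT without overlap and 4 overlapped, where 6.9% of all genes lay above. None of the 8 passed the test between genotypes. Pdgfra, a receptor that defines fibroblasts, had 4.59, 5.37 and 7.87 FPKM in KO P21 libraries, against 6.50, 5.32 and 6.43 in WT P21 libraries, with overlap. Postn, a matrix gene of activated fibroblasts, had 16.6, 44.5 and 23.6 FPKM in KO P21 libraries, against 3.11, 8.18 and 10.9 in WT P21 libraries (log2 difference 1.90, SE 0.42, adjusted p = 0.146). Endothelial markers lay the other way as a sum, with 218 to 250 FPKM over 8 genes in KO P21, against 267 to 382 in WT P21, without overlap. Singly, 7 of the 8 overlapped and 1 lay below WT, where 5.05% of all genes lay below. Egfl7, the highest of them in every P21 library, had 69.5, 86.6 and 72.5 FPKM in KO P21, against 157, 125 and 68.1 in WT P21. Their median log2 difference was -0.27, and 0.09 under TPM, where the median of all genes was 0.34. The summed levels of smooth muscle, macrophage and red cell markers overlapped between the genotypes at P21. The summed level of 6 epicardial markers was 8.75 to 23.8 FPKM in KO P21, against 3.74 to 8.38 in WT P21, with up to 3 of the 6 at 0 in a library. Immediate early genes, which respond within minutes to handling or stress as Ccn1 does, had a summed level over 17 genes of 377 to 489 FPKM in KO P21, against 410 to 458 in WT P21, with overlap. Of the 15 tested the median log2 difference was 0.48, and 0.07 without WT P21 libraries 1 and 2. In KO 2 lay above and 1 below WT without overlap, where 6.9% of all genes lay above and 5.05% below. The one below was Ier2, set here beside Jun, as Pdgfra beside Postn, after its P21 values were seen, at 41.0, 42.3 and 38.7 FPKM in KO P21, against 45.2, 78.7 and 50.9 in WT P21. Jun, one of those above, had 54.1, 27.9 and 26.9 FPKM in KO P21, against 14.2, 12.3 and 16.8 in WT P21 (log2 difference 1.23, SE 0.28, adjusted p = 0.147). Atf3, the other one above, had 38.1, 14.0 and 10.1 FPKM in KO P21, against 4.73, 4.68 and 3.62 in WT P21. The part of fibroblasts, endothelium, epicardium and early response genes in the Ccn1 and Ccn2 values was not tested.

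**Figure D4:**
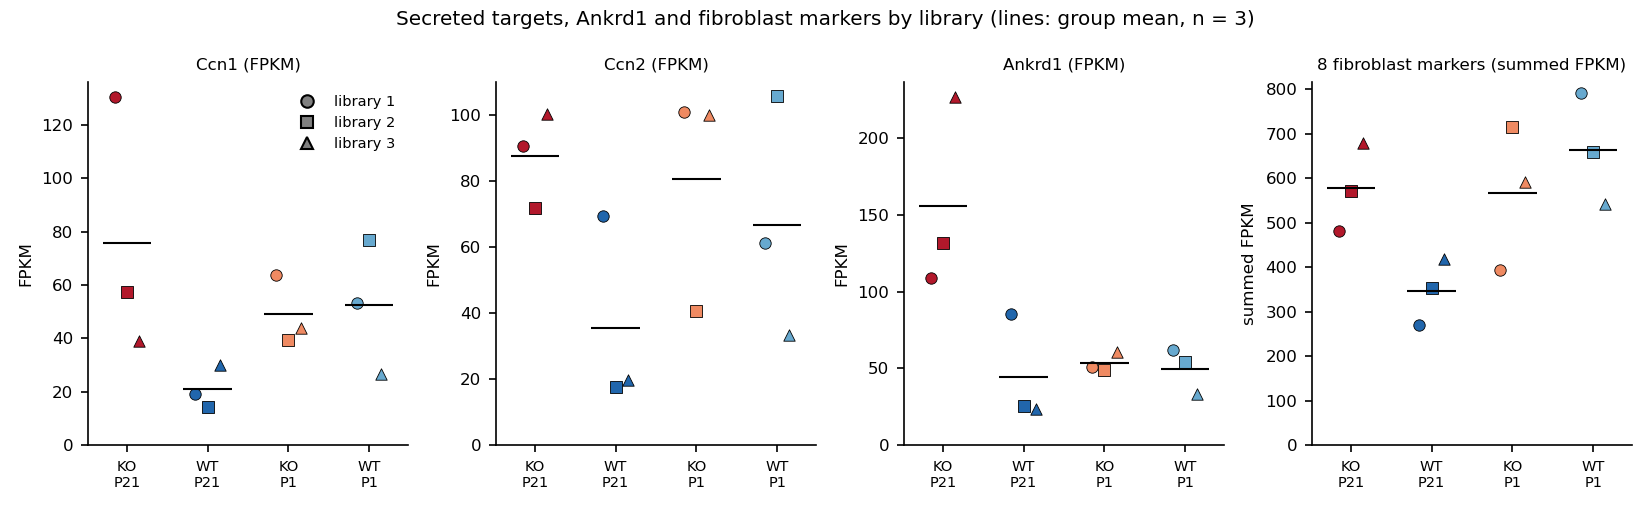
Ccn1, Ccn2 and Ankrd1 (FPKM) and the summed FPKM of 8 fibroblast markers per library, in KO P21, WT P21, KO P1 and WT P1. Symbols mark libraries 1, 2 and 3 of each group and lines are means (n = 3). In all 4 panels the KO P21 libraries lie above the WT P21 libraries, and at P1 the genotypes overlap.

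Of 19 other genes known as Yap and Taz targets, 17 were tested. None passed between genotypes at P21, and the median log2 difference was 0.15 against 0.00 over all genes. The summed level of the list was 248 to 402 FPKM in KO P21, against 142 to 280 in WT P21, with overlap. Ankrd1 was the largest part of that sum in every KO P21 library, so the sum does not stand for the list as a whole. Ankrd1, a stretch-responsive protein of heart muscle, had 109, 132 and 227 FPKM in KO P21 libraries, against 85.2, 25.2 and 23.5 in WT P21 libraries. Its KO values also lay above all WT values (log2 difference 1.99, SE 0.46, adjusted p = 0.156). Among the 17, 4 lay above and 1 below WT without overlap, where 6.9% of all genes lay above and 5.05% below. The one below was Axl, a receptor tyrosine kinase, at 33.2, 30.6 and 35.7 FPKM in KO P21, against 42.8, 37.8 and 41.3 in WT P21. By age, 6 of the 17 rose and 1 fell in KO, where 11.8% of all genes rose and 13.2% fell. In WT 3 rose and 3 fell, where 21.5% of all genes rose and 23.3% fell. The WT counts are therefore no result about the targets. Those that rose with age included Axl (0.53 in KO, adjusted p = 0.0200, and 0.79 in WT, adjusted p = 0.00151). Gadd45a, a DNA damage response gene, rose by 1.21 in KO (adjusted p = 0.00518) and 0.82 in WT (adjusted p = 0.0199). The calls of these rises depended on the scale. TPM moved the median of all genes to -0.65 in KO and -1.10 in WT. The change of Axl was then -0.13 in KO and -0.34 in WT, above that median in both genotypes. Under TPM none of the 17 passed as higher in either genotype, where 630 of 13537 genes did in KO and 756 in WT. Amotl2, which binds Yap1, fell in both genotypes (-1.25 in KO, adjusted p = 0.0222, and -1.63 in WT, adjusted p = 0.00342).

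Stk3 and Stk4, the kinases that activate Lats with Sav1, were lower at P21. Of 7 further genes of the kinase core, 3 fell in KO and 4 in WT, and none rose. Of all genes, 13.2% fell in KO and 23.3% in WT. Mob1a, Stk38 and Stk38l passed in neither genotype. The median change of the 7 was -0.64 in KO and -0.92 in WT, against -0.02 and -0.04 over all genes. Mob1b, a cofactor of the Lats kinases, had 3.16, 3.15 and 2.45 FPKM in KO P21, against 6.003, 5.28 and 6.69 in KO P1 (log2 change -0.93, SE 0.19, adjusted p = 0.00500). In WT it had 2.10, 1.51 and 2.67 FPKM at P21, against 6.89, 6.98 and 5.96 at P1 (log2 change -1.48, SE 0.19, adjusted p = 0.000206). Stk3 (Mst2) fell by 0.82 in KO and by 0.92 in WT, and Stk4 (Mst1) by 0.76 in KO and by 1.39 in WT, all past the threshold. Sav1, their scaffold, fell by 1.83 in WT (adjusted p = 0.00932) and had a change of -0.64 in KO (adjusted p = 0.358). The WT value of Sav1 was -0.40 (adjusted p = 0.341) without WT P21 libraries 1 and 2. Mob1b, Stk3 and Stk4 kept their calls in both genotypes without those libraries and under each of 3 other scalings. Stk38l, a kinase related to Lats that is named after its value was seen, was called higher in WT (0.84) without those libraries.

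**Figure D5:**
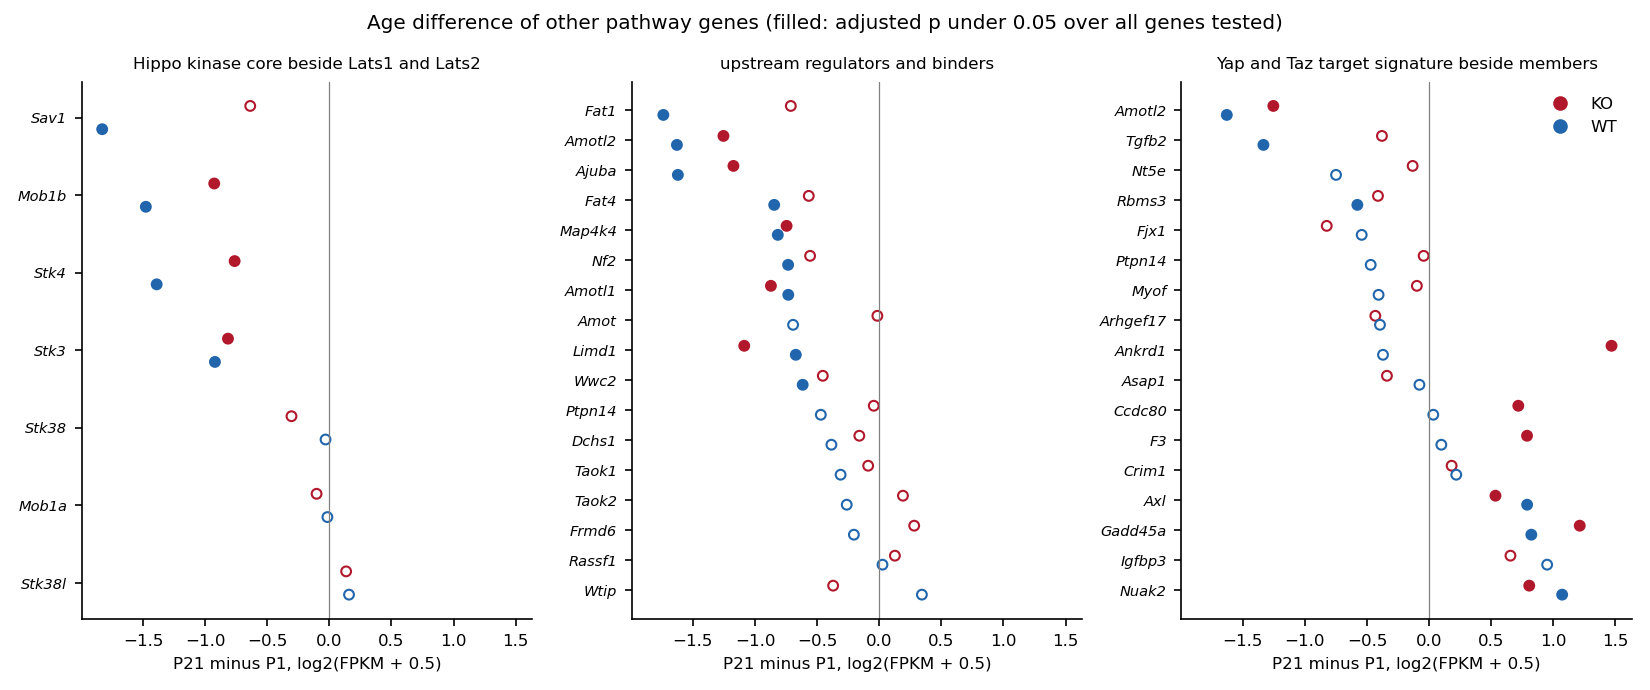
Age change (P21 minus P1, log2(FPKM + 0.5)) of 7 further kinase core genes, 17 upstream regulators and binders and 17 Yap and Taz targets, in KO and WT. Filled points passed an adjusted p of 0.05. No kinase core gene and no upstream regulator rose, and Amotl2 and Ptpn14 stand in both of the last lists.

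Among upstream regulators and binders the called genes were all lower, with 5 of 17 lower in KO and 9 of 17 in WT, where 13.2% of all genes were lower in KO and 23.3% in WT. Their median change was -0.45 in KO and -0.67 in WT, against -0.02 and -0.04 over all genes. Ajuba, a LIM protein that restrains Lats, fell by 1.17 in KO (adjusted p = 0.0106) and by 1.62 in WT (adjusted p = 0.00106). Limd1, of the same family, fell by 1.09 in KO (adjusted p = 0.00446). Map4k4, a kinase that acts beside Stk3 and Stk4, fell by 0.75 in KO (adjusted p = 0.0103) and by 0.82 in WT (adjusted p = 0.00359). Without WT P21 libraries 1 and 2, the median change of the 17 in WT was -0.47, against -0.03 over all genes. Vgll4, which competes with Yap1 for Tead factors, fell by 1.11 in WT (adjusted p = 0.0104) and had a change of -0.37 in KO (adjusted p = 0.390); without the same libraries the WT change was -0.43 (adjusted p = 0.254). The other 3 vestigial-like cofactors did not reach the filter.

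Of the other CCN family genes, 3 were tested, and 2 fell with age in both genotypes, where 13.2% of all genes fell in KO and 23.3% in WT. The third rose in KO, where 11.8% of all genes rose. Ccn4 (Wisp1) had 0.505, 0.476 and 0.999 FPKM in KO P21 libraries, against 8.63, 8.25 and 10.2 in KO P1 libraries. It fell by 3.06 in KO (SE 0.34, adjusted p = 0.000135) and by 3.44 in WT (SE 0.34, adjusted p = 5.1e-05). Ccn3 (Nov) fell by 2.33 in KO (adjusted p = 0.00119) and by 2.28 in WT (adjusted p = 0.000772). Ccn5 (Wisp2) rose by 1.11 in KO (adjusted p = 0.0123), and its change in WT was -0.22 (adjusted p = 0.526). Its rise in KO did not pass under any of 3 other scalings (change 0.73 to 1.04). At P21 Ccn5 had 1.46, 2.88 and 3.14 FPKM in KO libraries, against 0.872, 1.16 and 0.584 in WT libraries, without overlap as for Ccn1 and Ccn2 (log2 difference 1.10, adjusted p = 0.166). Ccn6 did not reach the filter.

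Some members followed each other across libraries. As a description over the 12 libraries, which share library depth and age, the Pearson r of log2(FPKM + 0.5) was 0.85 between Yap1 and Tead1 and 0.68 between Ccn1 and Ccn2. Taken as deviations from the group means, it was 0.87 between Tead1 and Tead4 and -0.70 between Tead2 and Tead4. The genes most like Tead2 in level were Tmem255a (r = 0.988) and Adam10 (r = 0.985), and those most like Tead1 were Fam120a (r = 0.989) and Arhgef11 (r = 0.985). For Yap1 they were Prrc2b (r = 0.961) and the atypical cadherin Fat1 (r = 0.959), itself an upstream regulator of the pathway. In deviations, Ccn1 was most like Jun (r = 0.923), an early response transcription factor, and Gemin5 (r = 0.922). These were the highest of 13537 genes and are given without a test.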

How the data were processed

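The authors deposited 1 table of FPKM values for 56748 genes in 12 libraries, with symbols, positions and lengths. The submitters' processing notes list edgeR, featureCounts, Subread, FastQC and TopHat2 2.0.13 with no order, and 3 builds (GRCh38, mm10, GRCm39) appear with no role. Which build the positions use, and whether strand was counted, are not given in the sources used here. FPKM times length came out as whole reads for 100% of values, within 0.05 of a read, and showed a further scaling factor of 0.605 to 1.17 per library. FPKM is no count, so log2(FPKM + 0.5) was fitted with limma 3.58.1 (R 4.3.3) with a trend and robust estimation, over genes of at least 1 FPKM in at least 3 libraries, with Benjamini-Hochberg adjustment and a threshold of 0.05. The fit was tested on simulated data. Groups came from the sample titles and columns from library names. Figures were drawn with matplotlib 3.10.9.

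The members and gene lists were chosen with earlier results of these data known. Named genes were all members, up to 4 genes per list and comparison with the smallest adjusted p, and the 2 genes nearest each member by Pearson r. Promoters came from RefSeq; the motifs were chosen with the sequences in view. Alternatives were other pseudocounts (0.1 and 1), filters, scalings, model options, voom on the recovered reads, a replicate block, and libraries left out.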

Additional observations from a re-analysis of the deposited data

How the results depend on the processing

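Tead2 kept its age call in both genotypes under all 24 alternatives (-3.27 to -2.34 in KO, -3.52 to -2.16 in WT), and Tead1 in WT under 23 of 24, all but the one without WT P21 libraries 1 and 2. The number of members lower at P21 in KO was 1 as deposited, 6 after rescaling to TPM and 2 with voom, where 1789, 4913 and 3902 of all 13537 genes were lower. In WT it was 2, against 10 with TPM, 9 without mitochondrial and the top 20 genes in the scaling, 9 with voom, and 1 without WT P21 libraries 1 and 2. Of all genes 3160 were lower in WT as deposited, against 8408, 7294, 6100 and 1558 in those fits. Leaving out 1 library at a time gave 2 to 4 in WT, with 4 reached without WT P1 replicate 3 and without WT P21 replicate 3. These scalings moved the median of all genes in WT from -0.04 to -1.10 (TPM), -0.89 and -0.67 (voom), and in KO from -0.02 to -0.65, -0.44 and -0.44. Relative to that median Tead2 changed by -2.71 to -2.50 in KO and -2.49 to -2.30 in WT, and Tead1 by -1.17 to -1.09 in WT. Lats1 in WT had the opposite sign at -1.01 (TPM), -0.83 (without mitochondrial and top genes) and -0.55 (voom), and was 0.06 to 0.12 above the median in each. Library weights called 2 members higher at P21 in KO, Tead4 (0.52) and Ccn1 (1.26), where 3234 of all genes were higher, against 1599 without weights. Leave-one-out gave 0 to 2 members higher in KO at P21, with 2 (Ccn1 and Tead4) without WT P21 replicate 3, where 818 of all genes were higher and 996 lower. With the replicate block, 2 members were lower in WT, 1 in KO and 0 between genotypes. Deviations of same-numbered libraries had r from -0.30 to 0.49, over 0.1 in 6 of 18 pairs. Pairs with other numbers had r from -0.48 to 0.34, over 0.1 in 14 of 36. Between KO P21 and WT P21, same-numbered libraries 1, 2 and 3 had r of 0.03, 0.49 and 0.35. The check therefore does not settle whether the numbers pair samples within an age. For the difference of the KO effects, the fit with only the groups compared was not run, and with a filter of 3 FPKM Tead4 was not tested. List counts and medians under other scalings or without WT P21 libraries 1 and 2 were added after seeing the data. Of the 17 upstream regulators, 10 were lower in KO and 16 in WT under TPM, and of the 17 targets 4 were lower in KO and 13 in WT. Tead4 rests on as few as 10 reads, which limits its precision. The cause of these shifts was not tested.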
